A study of Drosophila melanogaster with 6 samples.

Results

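The nuclear genes for subunits of respiratory complex I were followed here in whole adult male Drosophila melanogaster that had lost the Estrogen-Related Receptor (ERR), an orphan nuclear receptor. They are the 33 genes of the deposited table whose symbol equals a name on a list of nuclear-encoded NADH dehydrogenase subunits, out of 13035 genes in all, and each of the 33 was measured. RNA was measured by poly(A)-selected RNA-seq in 6 libraries. The 3 dERR mutant libraries came from day 6 adults that had been heated for 1 h on days 5 and 6 AEL (after egg laying). These heat days are counted from egg laying and are not days of adult age. The treatment switches on the heat-shock-driven FLP recombinase hsFLP. The 3 control libraries came from adults of the same age that had no heat. Flies of both groups were male and carried yw, hsFLP, the conditional allele dERR[conditional] and, opposite it, the allele dERR2, so the controls also hold an altered ERR allele. Heating and loss of ERR cannot be told apart, because no unheated mutant and no heated control is among the samples. The labels do not say whether libraries of a group came from separate cultures, so p-values measure only the spread between these samples.

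Complex I is the largest enzyme of the mitochondrial respiratory chain. It takes electrons from NADH, passes them along iron-sulfur clusters to ubiquinone, and pumps protons across the inner membrane. The matrix arm is made of an NADH-oxidizing N module and a ubiquinone-reducing Q module, and the membrane arm of a proximal and a distal part that hold the proton pumps. Most subunits are nuclear genes, while the pump subunits at the core of the membrane arm are encoded by mitochondrial DNA. Flight muscle of flies is rich in mitochondria, and a whole fly mixes it with every other tissue.

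ERR itself was at 112, 119 and 107 normalized counts (read counts divided by a size factor for each library) in the 3 mutant libraries, against 373, 497 and 539 in the 3 control libraries. The groups did not overlap, and ERR fell by 2.03 ± 0.13 on the log2 scale (SE; adjusted p = 3.58e-06, limma), 4.09-fold lower. The ERR gene (FBgn0035849) lies on 3L from 8176460 to 8179771 in dm3, the build of the deposited coordinates. The sources used here do not say which part of it the conditional allele loses, so the counts that remain were not divided between the alleles. Depth, worked out from what 1 read is worth in each library, was 13987814 to 16102936 reads a library. For 3 of the 6 libraries that worth lies so near 1 that a check of the recovered reads did not accept it, so their depth is less sure. Across all genes, limma called 617 higher (4.73%) and 1234 lower (9.47%) in mutants, at an adjusted p threshold of 0.05.

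Of the 33 complex I genes, 30 were called higher in mutants and 0 lower, against 4.73% of all genes called higher. The median log2 change of the 33 was 0.48, and single changes ran from 0.12 to 0.75, or 1.08-fold to 1.69-fold. The median over all genes was 0.00, and the complex I median stood at the 96.8th percentile of the changes of all genes. Mutant and control libraries did not overlap for 32 of the 33 genes, all with the mutants higher, against 15.7% of all genes apart in that direction and 16.9% apart with the mutants lower. Of the 33, 8 reached 1.5-fold, all of them called, where 144 of all 13035 genes were called at 1.5-fold or more higher. In RNA of whole flies, more cells of a type and more RNA per cell cannot be told apart. The genes not called were ND75, CG34439 and CG40002, at log2 changes of 0.16, 0.23 and 0.12. In the authors' deposited table of their own comparison, 30 of the 33 were likewise called higher and 0 lower, against 4.49% of genes higher and 9.04% lower.

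Added up, the 33 genes had 105255, 109117 and 107516 normalized counts in mutant libraries, against 82829, 77237 and 73356 in control libraries. The means were 107296 ± 1940 in mutants and 77807 ± 4762 in controls (SD, n = 3 each), a 1.38-fold difference with no overlap. As a share of each library this was 0.728 to 0.784% in mutants and 0.486 to 0.542% in controls. The 33 genes moved together between libraries of a group as well. Relative to the control mean, their median log2 level was 0.43, 0.52 and 0.50 in mutant libraries and 0.09, 0.01 and -0.10 in control libraries. Control library 1 was the highest control for 30 of the genes and control library 3 the lowest for 29. This order of the controls was not particular to complex I. The summed levels of complexes II, III and IV, of ATP synthase and of the muscle markers (below) had it too. Among mutants, library 2 was the highest for 18 genes and library 1 the lowest for 21. The spread within a group was narrow, with a median SD of 0.050 in mutants and 0.093 in controls on the log2 scale.

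**Figure D1:**
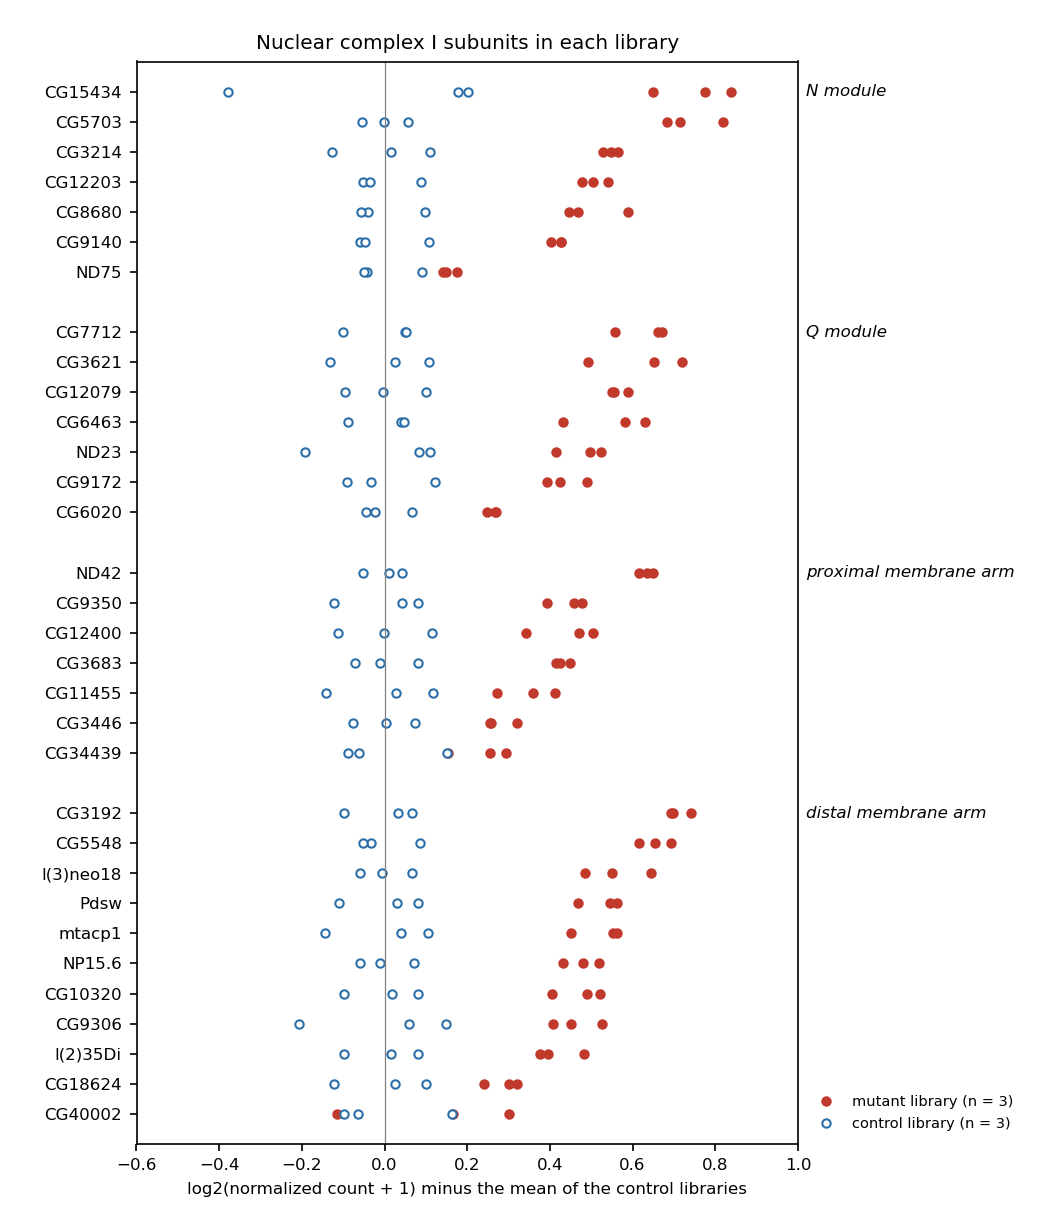
Log2 level of 32 of the 33 complex I genes in each library, relative to the mean of the 3 control libraries, grouped by the place of the subunit in the complex; filled points are mutant libraries and open points control libraries. The mutant points lie to the right of the control points for every gene shown but CG40002, where they overlap.

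The level of the genes put them among the well-expressed part of the transcriptome. The most abundant, CG9140, ranked 208 of 13035 by mean normalized count, the median gene ranked 1434, and CG15434 ranked 4923. CG40002 stood apart at rank 11662. The genes are short, with a median exon length of 0.843 kb over the 32 that matched an annotation, against 1.784 kb over 12526 genes. Per kilobase of exon, the median level was 3106 normalized counts in mutants and 2277 in controls. Of the members, 9 lie on 2L, 9 on X, 5 on 2R, 5 on 3L, 3 on 3R and 1 in the heterochromatic 3LHet. The median log2 change was 0.46 on 2L, 0.51 on X, 0.44 on 2R, 0.55 on 3L and 0.48 on 3R.

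In the N module, where NADH is oxidized, 6 of 7 genes were called higher, with a median log2 change of 0.51. CG5703 (now ND-24), the fly counterpart of human NDUFV2 with its iron-sulfur cluster, had 4426, 4865 and 4519.7 normalized counts in mutants, against 2866, 2653 and 2752 in controls. Every mutant library was far above every control library, and the gene rose by 0.74 ± 0.07 (log2, SE; adjusted p = 5.31e-05, limma). It lies on X from 17526121 to 17527539 (dm3, FBgn0030853). CG9140 (ND-51) is the counterpart of human NDUFV1, the subunit that binds NADH and the flavin cofactor. It had 10329, 10502 and 10498 normalized counts in mutants, against 8416, 7504 and 7559.7 in controls, without overlap. Its rise was 0.42 ± 0.08 (adjusted p = 3.40e-03, limma), on 2L from 6060834 to 6062757 (FBgn0031771).

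ND75 (ND-75) is the counterpart of human NDUFS1, the large iron-sulfur subunit of the same module. It had 8277, 8129 and 8082 normalized counts in mutants, against 7802, 7120.1 and 7083 in controls. The groups did not overlap, but the gap was small and ND75 was not called (log2 change 0.16 ± 0.07; adjusted p = 0.203, limma). It lies on X from 8142683 to 8145742 (FBgn0017566). Within each library, the ratio of ND75 to CG5703 counts was 1.87, 1.67 and 1.79 in mutants, against 2.72, 2.68 and 2.57 in controls. Lengths are not divided out of this ratio, so it says only how the pair differed between libraries. The ratio of ND75 to CG9140 was 0.801, 0.774 and 0.770 in mutants, against 0.927, 0.949 and 0.937 in controls. Both ratios were lower in every mutant library, and the pairs were chosen after their values were seen, so no test is given.

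**Figure D2:**
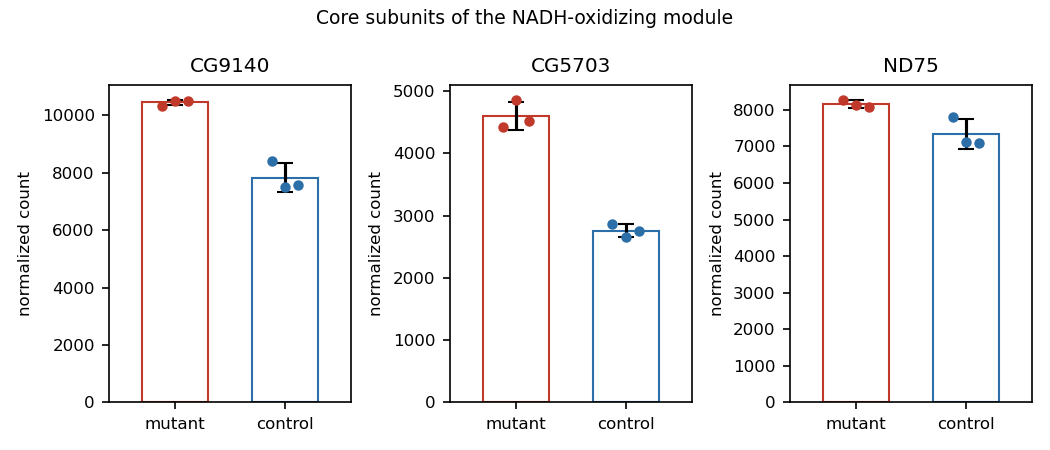
Normalized counts of CG9140, CG5703 and ND75, the 3 core subunits of the NADH-oxidizing module, in mutant and control libraries; bars are means, error bars SD (n = 3 each) and points libraries. Mutant points lie above control points in each panel, by the least for ND75, at 8163 ± 101 in mutants and 7335 ± 405 in controls.

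The other N module genes are accessory subunits in human complex I. CG15434 (ND-B8, human NDUFA2) had 673, 735 and 767 normalized counts in mutants, against 493, 485 and 329 in controls. Control library 3 was well below the other 2 controls, and the change had the largest error of the called members, 0.75 ± 0.14 (adjusted p = 3.89e-03, limma). In the deposited coordinates CG15434 overlaps Gs1l, whose level was 158% of its own and which fell (log2 change -0.42). CG3214 (ND-B17.2, human NDUFA12) rose by 0.55 ± 0.08. CG12203 (ND-18), the counterpart of human NDUFS4, a subunit whose loss causes mitochondrial disease in people, rose by 0.51 ± 0.07. CG8680 (ND-13A, human NDUFS6) rose by 0.50 ± 0.08.

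All 8 genes of the Q module, where ubiquinone is reduced, were called higher, with a median log2 change of 0.56. CG9172 (ND-20, human NDUFS7) carries the last iron-sulfur cluster before ubiquinone and rose by 0.44 ± 0.08. ND23 (ND-23, human NDUFS8), another iron-sulfur subunit, rose by 0.48 ± 0.09. CG12079, for which no current symbol was matched, rose by 0.57 ± 0.07.

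Among accessory genes of the Q module, CG7712 (ND-B14, human NDUFA6) rose by 0.63 ± 0.07, CG3621 (ND-B14.5A, human NDUFA7) by 0.62 ± 0.09 and CG6463 (ND-13B, human NDUFA5) by 0.55 ± 0.08. The smallest rise of the module was that of CG6020 (ND-39, human NDUFA9, a nucleotide-binding subunit). It had 6205, 6302 and 6298 normalized counts in mutants, against 5479, 5149 and 5071 in controls. The groups did not overlap, at a log2 change of 0.26 ± 0.07 (adjusted p = 0.0272, limma). This call was lost without any of the mutant libraries 1, 2 and 3 or the control libraries 2 and 3, where its adjusted p was 0.0585 to 0.102 and its log2 change 0.24 to 0.27.

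In the proximal membrane arm 6 of 7 genes were called higher, with a median log2 change of 0.43. ND42 (ND-42), the counterpart of human NDUFA10, which resembles a nucleoside kinase, had 4889, 4771 and 4839 normalized counts in mutants, against 3207, 3139 and 3007 in controls. It rose by 0.63 ± 0.07 (adjusted p = 8.22e-05, limma), with a wide gap between the groups. CG9350 (ND-B14.7, human NDUFA11) and CG12400 (ND-B14.5B, human NDUFC2) each rose by 0.44 ± 0.08, and CG3683 (ND-19, human NDUFA8) by 0.43 ± 0.07. CG3446 (ND-B16.6, human NDUFA13, also known as GRIM-19) rose by 0.28 ± 0.07 (adjusted p = 0.0214). Its call was lost without the same 5 libraries as that of CG6020, at an adjusted p of 0.0563 to 0.1004.

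CG11455 (ND-15, human NDUFS5) was at 2203, 2426 and 2337 normalized counts in mutants, against 1976, 1857 and 1652 in controls, without overlap (log2 change 0.35 ± 0.08; adjusted p = 0.0156, limma). Its deposited interval on 2L, from 114725 to 156030, covers many other genes. Among them CG3164 had 410% of its level and fell (log2 change -0.39), and Gs1, CG4822 and CG31974 had 76.3%, 55.7% and 43.5%. The call was lost without mutant library 3 or control library 3, at adjusted p = 0.0597 and 0.0759. CG34439 (ND-MWFE, human NDUFA1) was not called. It had 1624, 1742 and 1792 normalized counts in mutants, against 1621, 1398 and 1374 in controls, so mutant library 1 and control library 1 were nearly equal. Its log2 change was 0.23 ± 0.08 (adjusted p = 0.0927), and without control library 1 it was called at 0.31 (adjusted p = 0.0256). It overlaps TppII, at 92.6% of its level.

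In the distal membrane arm 10 of 11 genes were called higher, with a median log2 change of 0.48. CG3192 (ND-ASHI, human NDUFB8) had 2534, 2451 and 2458 normalized counts in mutants, against 1586, 1550.4 and 1415 in controls. The groups were far apart, and it rose by 0.71 ± 0.07 (adjusted p = 6.05e-05, limma). It overlaps l(1)G0255, which stood at 176% of its level and rose by 0.37. CG5548 (ND-B18, human NDUFB7) was at 1333, 1370.3 and 1299 in mutants, against 899, 829 and 817 in controls, a rise of 0.65 ± 0.07. l(3)neo18 (ND-SGDH, human NDUFB5) rose by 0.56 ± 0.07, Pdsw (ND-PDSW, human NDUFB10) by 0.52 ± 0.07 and NP15.6 (human NDUFB11) by 0.48 ± 0.07.

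mtacp1 (ND-ACP) encodes the mitochondrial acyl carrier protein, which sits in complex I and also serves fatty acid synthesis in mitochondria. It had 3416, 3686 and 3664 normalized counts in mutants, against 2688, 2567 and 2259 in controls. Its log2 rise was 0.52 ± 0.08 (adjusted p = 1.26e-03, limma), with no overlap. CG10320 (ND-B12, human NDUFB3) rose by 0.47 ± 0.07, CG9306 (ND-B22, human NDUFB9) by 0.46 ± 0.09 and l(2)35Di (ND-B17, human NDUFB6) by 0.42 ± 0.07. CG18624 (ND-MNLL, human NDUFB1) had the smallest called change of the arm, 0.29 ± 0.08 (adjusted p = 0.0277), and its call was lost without the same 5 libraries as that of CG6020, at an adjusted p of 0.0537 to 0.124.

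CG40002 (ND-AGGG, human NDUFB2) was at 35.2, 28.8 and 38.8 normalized counts in mutants, against 29.9, 35.2 and 29.2 in controls. It is the subunit gene that lies in heterochromatin, on 3LHet from 459585 to 460458 (FBgn0058002). The groups overlapped, and at this depth no difference was detectable (log2 change 0.12 ± 0.19; adjusted p = 0.757, limma). Per kilobase of exon its level was 46.0 normalized counts in mutants and 42.2 in controls, against a median of 3106 and 2277 for the matched subunits in mutants and controls.

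To see how the subunits differed among themselves, each library was also centred on the median of its 33 complex I genes, an analysis chosen after the data were seen. On this scale 4 subunits were called higher in mutants, among them CG15434 (0.33 ± 0.13, log2, SE), CG5703 (0.31 ± 0.11) and CG3192 (0.28 ± 0.11), and ND75 was called lower (-0.27 ± 0.10; adjusted p = 0.0333, limma). The background is large there, with 0.583% of all genes called higher and 65.5% lower (66.1% in either direction), because the centring moves the median of all genes to -0.42. With so many genes called, adjustment over all genes changed p little, for ND75 from 0.0198 to 0.0333 (limma). No adjustment over the 33 genes alone was made, so these calls do not establish that subunits differ. Leaving out single libraries left 0 to 5 subunits called, with 0 without mutant library 3, 1 without mutant library 2 or control library 2, and 2 without mutant library 1.

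Several core subunits have a paralog in the fly genome, listed with an L in its current name, and these were measured beside them. Of 5 paralogs, 0 were called by limma, where 14.2% of all genes were called in either direction, so the count is near that share. Among the 5, 1 had an unadjusted p under 0.05, and their median log2 change was 0.05. CG6485 (ND-24L), the paralog of CG5703, had 320.1, 321 and 299.6 normalized counts in mutants, against 255, 326 and 333 in controls. The groups overlapped, at a log2 change of 0.05 ± 0.11, beside 0.74 ± 0.07 for CG5703. CG2014 (ND-20L) was at -0.01 ± 0.13, beside 0.44 ± 0.08 for CG9172.

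CG9140 has a pair of paralogs. CG11423 (ND-51L1) was at -0.09 ± 0.10 and CG8102 (ND-51L2) at 0.26 ± 0.12 (adjusted p = 0.182, limma), beside 0.42 ± 0.08 for CG9140. CG8102 had 354, 331 and 349 normalized counts in mutants, against 244, 289 and 338 in controls, and mutant library 2 was below control library 3. Per kilobase of exon, CG5703 stood 11.6-fold above CG6485 in mutants and 7.17-fold in controls. CG9140 was 34.2-fold above CG11423 in mutants and 23.9-fold in controls. Reads that fit both copies could be split between them, and whether a subunit changed more than its paralog was not tested.

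**Figure D3:**
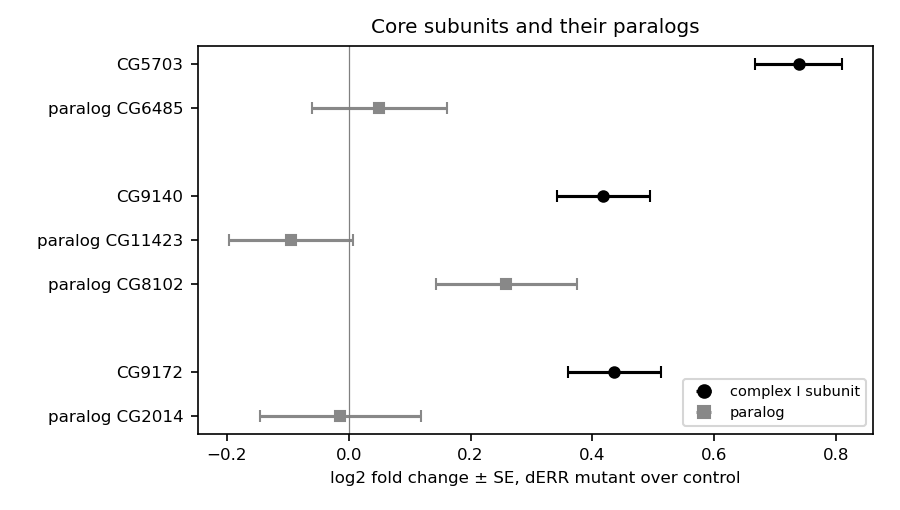
Log2 change, mutant over control, with its SE, of 3 complex I core subunits (circles) and of 4 paralogs (squares, under their partners). The subunits lie between 0.42 and 0.74, and the paralogs between -0.09 and 0.26.

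Of the 7 subunits encoded by mitochondrial DNA, 5 were measured, and mt:ND3 and mt:ND4L were not analysed here. Limma-trend called 0 of the 5, as did limma-voom and the authors' deposited table, and 2 had an unadjusted p under 0.05. Over all genes limma-trend called 14.2% in either direction, so the count is near that share. The summed level was 887, 727 and 800.2 normalized counts in mutants, against 738, 980 and 1128 in controls, so the groups overlapped. mt:ND1 was at 544, 441 and 372 in mutants, against 379, 492 and 395 in controls. mt:ND4 was at 244, 187 and 341 in mutants, against 268, 391 and 666 in controls (log2 change -0.72 ± 0.29; adjusted p = 0.138), and without control library 1 it was called, at -1.03 (adjusted p = 0.0486). mt:ND6 had 8.81, 8.95 and 8.96 normalized counts in mutants, against 5.34, 4.63 and 1.01 in controls (adjusted p = 0.135). Libraries were made from poly(A)-selected RNA, and how completely each mitochondrial transcript was captured was not tested.

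Assembly factors help to put complex I together but are not part of the finished enzyme. Of 8 measured, 0 were called higher and 1 lower, where 9.47% of all genes were called lower, so the count is near that share. Their median log2 change was 0.15. CG3270, the counterpart of human FOXRED1, had 974, 1004 and 913 normalized counts in mutants, against 1419, 1238 and 1205 in controls. The groups did not overlap and it fell (log2 change -0.41 ± 0.08; adjusted p = 5.97e-03, limma). CG8067 and CG5569 had log2 changes of 0.28 ± 0.09 and 0.33 ± 0.12 without being called (adjusted p = 0.0631 and 0.0935, limma). CG8067 was called higher with the 5 CPM filter (adjusted p = 0.0492), upper-quartile scaling (0.0417), quantile normalization (0.0323) and library totals (0.0211), and CG5569 with library totals (0.0440). CIA30, Nubpl and sicily, which are named as assembly factors in fly or human work, were at 0.13 ± 0.08, 0.09 ± 0.07 and 0.22 ± 0.15, and were not called.

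The other nuclear parts of the respiratory chain moved in the same direction. Not every listed symbol was matched: 4 of 5 were for complex II, 7 of 12 for complex IV and 13 of 15 for ATP synthase. Of complex II, 3 of 4 measured genes were called higher (median log2 change 0.49), of complex III 8 of 8 (0.39), of complex IV 6 of 7 (0.41) and of ATP synthase 11 of 13 (0.38), beside 30 of 33 (0.48) for complex I and 4.73% of all genes. Scaled to ribosomal protein genes, complexes II, III and IV had 2, 3 and 2 genes called higher and ATP synthase 4, beside 24 for complex I and 1.58% of all genes. Succinate dehydrogenase B (SdhB) rose by 0.59 ± 0.08 and the Rieske iron-sulfur protein RFeSP of complex III by 0.62 ± 0.07. The ATP synthase alpha subunit blw and the complex IV gene CG9603 were not called, at 0.07 ± 0.09 and -0.07 ± 0.08. Without mutant library 3 or control library 3 complex III had 4 genes called, and without control library 2 it had 5. Complex I was not tested against the other complexes. Of 5 regulators of mitochondrial biogenesis, 1 was called, where 14.2% of all genes were called in either direction. TFAM, which packages and transcribes mitochondrial DNA, had 607, 599 and 616 normalized counts in mutants, against 479, 413 and 431 in controls, a rise of 0.46 ± 0.08 (adjusted p = 2.80e-03, limma). Spargel, the fly PGC-1 homolog, was at -0.13 ± 0.10 and was not called.

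**Figure D4:**
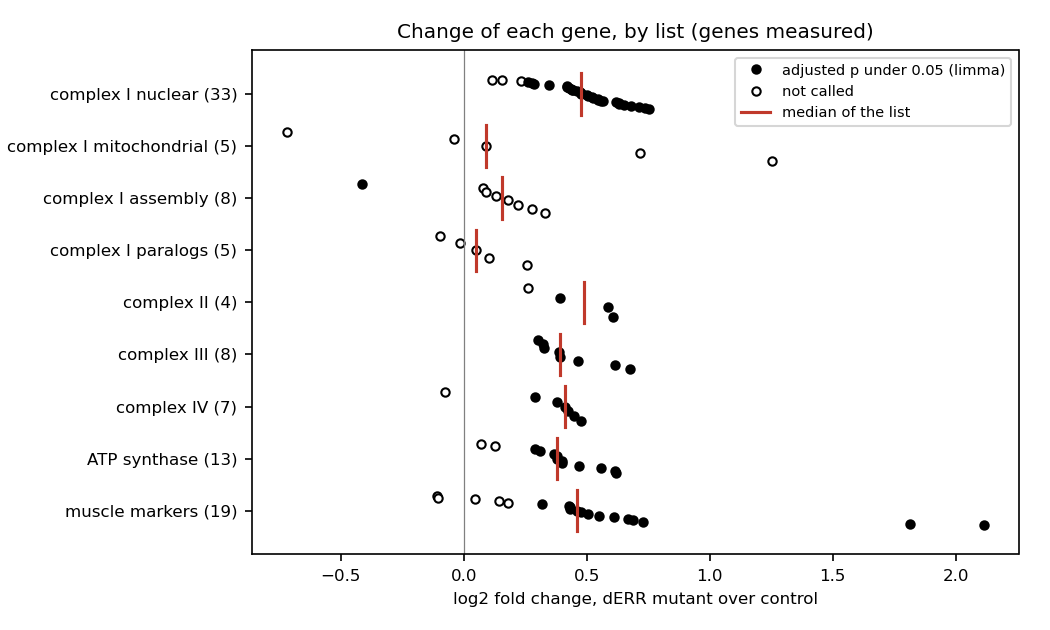
Log2 change, mutant over control, of each measured gene in 9 lists; filled points have an adjusted p under 0.05 in limma, open points do not, and red lines are medians. The nuclear complex I points lie between 0.12 and 0.75, with a median of 0.48, and the mitochondrially encoded, assembly and paralog lists have medians of 0.09, 0.15 and 0.05.

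Muscle markers were higher alongside complex I. Of 19, 14 were called higher and 0 lower (median log2 change 0.46), and their summed level was 344518, 298967 and 349569 normalized counts in mutants, against 286243, 260525 and 247410 in controls. This is 2.15 to 2.45% of the library in mutants and 1.64 to 1.87% in controls, 1.25-fold apart on the summed means. Single log2 changes of the 19 ran from -0.11 to 2.11, and 6 markers reached 1.5-fold. The largest rises of the list were those of Act88F and TpnC4, both expressed in indirect flight muscle, at 2.11 ± 0.09 and 1.81 ± 0.13. The ratio of summed complex I to summed muscle counts was 0.306, 0.365 and 0.308 in mutants, against 0.289, 0.296 and 0.296 in controls. Mutant library 2, which had the highest summed complex I level of the mutants, had the lowest summed muscle level. The most abundant markers weigh most in that sum, and not every marker was lowest there. In mutant libraries 1, 2 and 3, Act88F had 6458, 7259 and 8041 normalized counts and TpnC4 6475, 5547 and 5399. In an alternative added once the values were known, libraries were scaled so that the mean log2 level of the 19 muscle markers was equal. That mean includes Act88F and TpnC4. On this scale 0 of the 33 complex I genes were called higher and 5 lower, with a median of -0.07, beside -0.08 for the markers. In that setting 82.1% of all genes were called lower. The part of the muscle markers in the complex I result was not tested beyond these values.

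**Figure D5:**
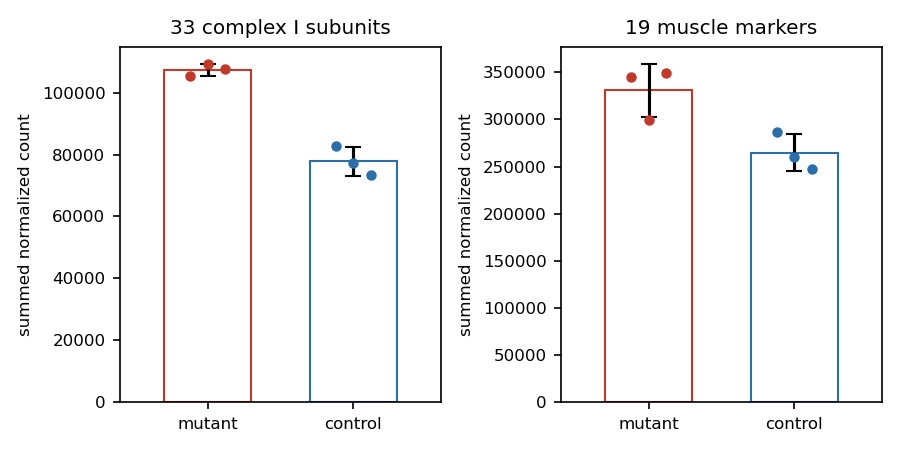
Summed normalized counts of the 33 complex I genes and of the 19 muscle markers in mutant and control libraries; bars are means, error bars SD (n = 3 each) and points libraries. Every mutant library is above every control library in both panels.

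Markers of other tissues were present in every group, and no marker list held a gene with a mean of 0. Over all genes, 4.73% were called higher and 9.47% lower. Testis markers had 0 of 13 called in either direction (6 at an unadjusted p under 0.05; median log2 change 0.22), with 0.450 to 0.538% of the library in mutants and 0.355 to 0.430% in controls. All 12 measured accessory gland markers were called lower (median -1.17), with 0.290 to 0.311% of the library in mutants and 0.601 to 0.742% in controls. Of fat body markers 5 of 7 were called lower (0.346 to 0.410% in mutants and 0.566 to 0.625% in controls). Of gut markers 6 of 11 were called lower and 2 higher (0.472 to 0.587% in mutants and 0.564 to 0.610% in controls), and of neuron markers 1 of 10 lower, close to the share of all genes (0.0945 to 0.119% of the library in mutants and 0.102 to 0.121% in controls). Their part in the complex I result was not tested.

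The count of complex I genes called depended on the scale chosen. Scaled to 92 ribosomal protein genes, the median of all genes moved to -0.16, 24 of the 33 were called higher and 0 lower, against 1.58% of all genes higher and 15.9% lower, and the median of the 33 was 0.32. The 6 calls lost were those of CG9140 (adjusted p = 0.0544, limma), l(2)35Di (0.0508), CG11455 (0.155), CG18624 (0.323), CG3446 (0.356) and CG6020 (0.440). Scaled to library totals, the median of all genes moved to 0.09, 32 of the 33 were called higher and 0 lower, against 9.92% of all genes higher and 7.61% lower, and the median of the 33 was 0.56. The 24 were called also on the other scales and without any single library, apart from the muscle marker scaling, and included CG5703, ND42 and CG3192. Further genes now named as complex I subunits were not on the list and were looked up after the data were seen. Their log2 changes all had the same sign as those of the 33, though not each was called. CG12859 (ND-B15) rose by 0.51 ± 0.08 (adjusted p = 9.88e-04, limma) and CG32230 (ND-MLRQ) by 0.36 ± 0.10 (adjusted p = 0.0339), while CG6914 (ND-B14.5AL) was at 0.14 ± 0.09 and was not called.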

How the data were processed

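Per the submitters' processing notes, the authors used Novoalign and DESeq2 with the build dm3, named without versions. How reads were counted, whether strand was used and which annotation release served are not stated in the labels. The deposited signal of each library is a normalized count: the authors divided the reads of a gene by a size factor of the library. Within 0.001, every value was a whole multiple of what 1 read is worth in its library; in 3 libraries this worth is so near 1 that a check of recovered reads did not accept it, and no count model was fitted. Beside these, 13035 genes carry the authors' deposited comparison, with log2 fold changes, a test score, p-values and adjusted p-values, missing for 8 genes.

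From the deposited values, log2(normalized count + 1) was fitted with limma 3.58.1 in R 4.3.3 (limma-trend, a group term, no filter). P-values were adjusted by Benjamini-Hochberg over the 13035 genes, with a threshold of 0.05. Fold changes are on that scale, on which low genes seem to change less than they do. Labels give no pairing and no batch. Chi-square per gene between libraries of the same group was 7.13 to 13.68, where sampling gives 1 (at least 20 reads), so none was counted as a repeat. Data simulated for this comparison over 13035 genes held changed genes with a mean of at least 50. The fit called 64 of 67 changed by 1.5-fold, all 67 changed by 2-fold and all 66 changed by 4-fold, with 4 false calls among 201.

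The 33 members, the other gene lists and the tests were chosen with earlier results of these data known. Any member of the complex I, respiratory chain, assembly factor, paralog and regulator lists could be named, and of the marker lists only Act88F and TpnC4. A member of the Q module that is in the counts, medians and sums is not reported here by itself. Overlapping genes, CG12859, CG32230 and CG6914 were named after their values were seen. Exon lengths and current symbols come from a dm6 annotation that matched 12526 identifiers. Overlaps use the deposited dm3 coordinates, and where strand was not used, overlapping genes cannot be told apart. Alternatives changed the pseudocount (0.5, 5), a filter (mean of at least 5 CPM), the scaling, the variance prior, the test (limma-voom) or the libraries. Figures were drawn with matplotlib 3.10.9 from tables made in Python 3.11.15 (pandas 2.3.3, numpy 2.4.6).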

Additional observations from a re-analysis of the deposited data

How the results depend on the processing

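No paired analysis was possible because the labels give no replicate numbers; the numbers used here follow accession order and only name libraries. Over 16 alternatives, 527 values of complex I genes gave 499 on the same side with the same direction, 23 no longer called, 3 newly called and 2 reversed, ND75 (-0.0039) and CG40002 (-0.038), both when scaled to ribosomal protein genes. That scaling lost the calls of CG3446, CG11455, CG9140, l(2)35Di, CG6020 and CG18624. Leaving out single libraries gave 26 to 31 subunits called higher, and scaling to muscle markers, added once values were known, gave 0 higher and 5 lower. Over all genes, 206 were called higher and 2069 lower when scaled to ribosomal protein genes, 1293 higher when scaled to library totals, and 330 to 563 higher without single libraries. Scaled to ribosomal protein genes, complexes III and IV had 3 and 2 genes called and ATP synthase 4, and without single libraries complex III had 4 to 8. Calls of assembly factors were 2 with the 5 CPM filter, upper-quartile scaling or quantile normalization, where CG8067 was called higher, and 3 with library totals, where CG5569 was too, while those of mitochondrially encoded subunits were 0 to 1 without single libraries. Subunits apart from the median subunit were 0 to 5 without single libraries. Reversed log2 values of genes not called in the comparison were, when scaled to ribosomal protein genes, -0.029 for CG7598 (CIA30), -0.082 for CG17726, -0.067 for CG3262 (Nubpl), -0.066 for mt:ND1, -0.11 for CG6485 and -0.057 for CG11913. Scaled to library totals they were 0.047 for mt:ND5 and 0.072 for CG2014, with quantile normalization 0.027 for mt:ND5 and 0.031 for CG2014, and with upper-quartile scaling 0.024 for CG2014. Without single libraries, values ran from -0.049 to 0.224 for mt:ND1, -0.128 to 0.023 for mt:ND5, -0.072 to 0.120 for CG6485, -0.147 to 0.067 for CG2014 and -0.0013 to 0.189 for CG11913. The cause of these differences was not tested. Depth limits CG40002, mt:ND2 and mt:ND6, whose counts were low.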
